A study of Rattus norvegicus with 12 samples.

Results

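The genes described here are 43 genes of protein folding and quality control in the endoplasmic reticulum and of the unfolded protein response, chosen as a list of symbols by what these proteins do. Earlier results of these data were known when the list was chosen. Of the 43, 38 were measured, among 14506 genes with 1 annotated symbol. Ero1l was found under its current name Ero1a, and Ero1lb, Txndc5, Derl2, Edem1 and Ern1 were not analysed here. By role, the 38 comprised 18 chaperones and folding factors, 8 disulfide enzymes, 7 degradation factors, 3 stress sensors and regulators, and 2 genes of endoplasmic reticulum calcium handling. They were measured in the ventral prostate of male Wistar rats 90 days old, on 12 Affymetrix arrays in 4 groups of 3. The castrated group had its testes removed under anaesthesia (150 mg/kg ketamine with 10 mg/kg xylazine). The estradiol group kept its testes and was given 17β-estradiol once, in corn oil, at 25 mg/kg. The castrated plus estradiol group received both, and the control group was given the corn oil vehicle. Tissue was taken 3 days later in every group. The labels do not say whether rats that were only castrated received the vehicle. The series describes the 3 procedures as androgen deprivation, and each was compared with control and with the others.

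Proteins bound for secretion are folded in the endoplasmic reticulum by chaperones such as BiP (the product of Hspa5), receive disulfide bonds from protein disulfide isomerases, and are sent back to the cytosol for degradation if they fail to fold. When unfolded protein accumulates, the sensors ATF6, PERK (Eif2ak3) and IRE1 (Ern1) start the unfolded protein response, in which cleaved ATF6 and the spliced form of XBP1 switch on genes of the folding machinery. The ventral prostate is a secretory gland whose luminal cells release large amounts of protein under the control of testicular androgen.

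Cleaved ATF6 and XBP1 are known to act through short promoter elements, so the promoters of the members were read for them. Promoters from RefSeq (rat build GRCr8, 250 bases before to 50 bases after each annotated start) were matched for 30 of the 38 measured members. The endoplasmic reticulum stress element (ERSE) was searched as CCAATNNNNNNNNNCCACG on both strands. It was found in 8 of the 30 members (26.7%), which were Calr, Canx, Creld2, Derl3, Dnajc3, Hsp90b1, Hspa5 and Xbp1, against 22 of 33469 rat promoters searched (0.0657%). A shorter variant, ERSE-II, was searched as ATTGGNCCACG and was found in 3 members (Dnajb11, Herpud1 and Hyou1) against 17 of all promoters (0.0508%). The core of the XBP1-binding unfolded protein response element, searched as TGACGTGG, was found in 3 members (Dnajc10, Hyou1 and Txndc11) against 199 of all promoters (0.595%), and 1 of the matches in Hyou1 overlapped its ERSE-II. The palindromic androgen response element, searched as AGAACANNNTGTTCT, was found in 5 of all promoters (0.0149%) and in 0 of the 30 members. A match is a stretch of letters and not a shown binding site.

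The sequences below are the whole 250 bases before the start of Hspa5, the best known carrier of the element, and the matches of 6 genes on which the results turn, each with up to 20 bases on either side. All run 5′ to 3′ on the strand of the gene, and capitals mark the match, which reads as the reverse complement where the element lies on the opposite strand. They lie on GRCr8 at chr3:38452766-38453015 (plus strand) for Hspa5, chr20:12766581-12766639 (minus) for Derl3, chr7:121789219-121789277 (plus) for Creld2, chr19:10614801-10614851 (minus) for Herpud1, chr8:53602674-53602724 (plus) for Hyou1, chr14:84604538-84604596 (plus) for Xbp1 and chr10:35158049-35158107 (minus) for Canx.
Hspa5, ERSE: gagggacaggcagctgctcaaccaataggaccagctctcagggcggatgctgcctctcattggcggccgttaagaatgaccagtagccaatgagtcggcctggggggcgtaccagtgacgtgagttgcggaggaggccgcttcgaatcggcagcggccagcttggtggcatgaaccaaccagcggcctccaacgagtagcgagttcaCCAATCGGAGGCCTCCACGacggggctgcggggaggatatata
Derl3, ERSE on the opposite strand: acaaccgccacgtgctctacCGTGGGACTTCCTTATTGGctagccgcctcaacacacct
Creld2, ERSE on the opposite strand: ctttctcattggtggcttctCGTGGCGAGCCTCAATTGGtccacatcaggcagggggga
Herpud1, ERSE-II: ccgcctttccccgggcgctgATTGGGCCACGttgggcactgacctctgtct
Hyou1, ERSE-II on the opposite strand, the farther of 2 from the start: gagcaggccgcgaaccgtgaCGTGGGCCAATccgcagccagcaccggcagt
Xbp1, ERSE: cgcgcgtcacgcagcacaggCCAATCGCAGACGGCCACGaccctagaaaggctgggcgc
Canx, ERSE: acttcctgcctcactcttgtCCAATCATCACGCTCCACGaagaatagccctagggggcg

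**Figure D1:**
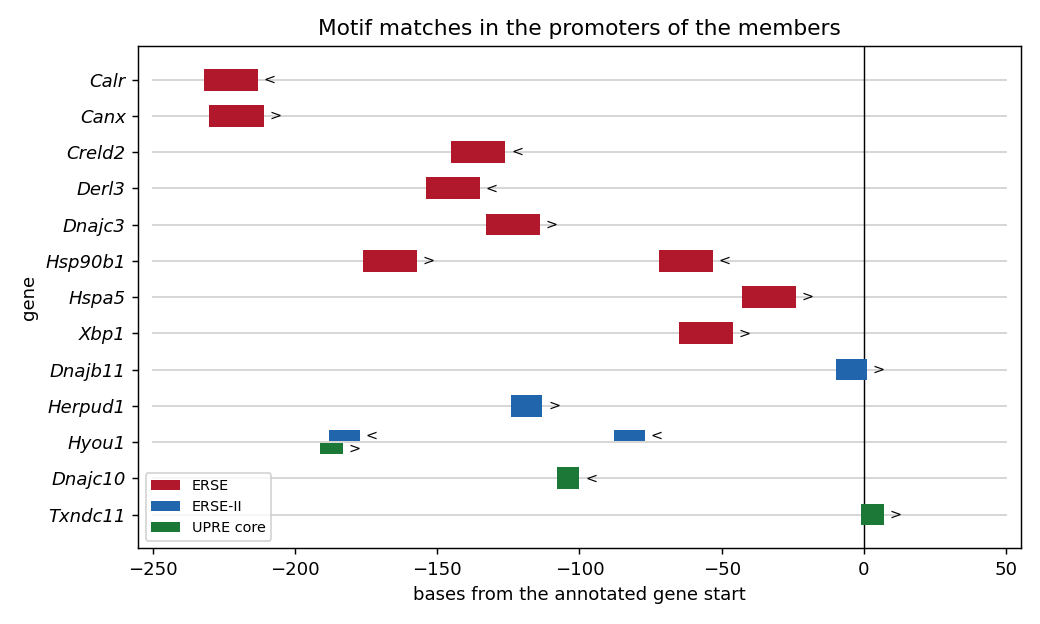
Positions of the matches in the promoters of the 13 members that held 1, in bases from the annotated start (vertical line), with 1 line per gene and a mark (> or <) for a match on the strand of the gene or the opposite strand. The ERSE of Hspa5 began 43 bases before the start and that of Calr 232 bases before it.

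Levels are the deposited values, read as log2 (1 unit stands for a doubling). They were compared between groups for the same gene, and between genes only to rank genes by mean level. Differences were tested with limma over all 14506 genes with Benjamini-Hochberg adjustment, and a gene is said to have risen or fallen only where its adjusted p was below 0.05. The median standard error of a difference was 0.2 among members and 0.19 over all genes. No label says which animal an array came from, so the spread behind each p-value is that between arrays and may partly be technical. The design text names more rats than there are arrays, and whether an array holds RNA of 1 rat or of a pool is not stated. Estradiol arrays 1 and 2 stood apart from the other 10 arrays over all probe sets, with standard deviations of 1.93 and 2.01 against 2.24 to 2.30 and with their lowest 10% of values averaging 3.41 and 3.34 against 2.69 to 2.84. Estradiol array 3 alone carried the seminal vesicle gene Semg1 at a level of 9.46, against 2.62 to 3.43 on the other arrays. Results of the estradiol group are therefore also given without arrays 1 and 2.

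Genes of the folding machinery were lower in the ventral prostate after each of the 3 treatments. In castrated rats 22 of the 38 members fell and 0 rose, where 2.36% of all genes fell and 3.17% rose. After estradiol 22 fell and 0 rose, where 5.48% of all genes fell and 2.51% rose. After castration plus estradiol 15 fell and 0 rose, where 2.21% of all genes fell and 2.12% rose. At an unadjusted p below 0.05, limma placed 29, 30 and 30 members lower and 0, 0 and 0 higher in these comparisons, where 6.22%, 14.7% and 6.4% of all genes were lower and 9.88%, 15.5% and 8.26% higher. Over all 38 measured members the median difference from control was -0.82 after castration, -0.81 after estradiol and -0.81 after both, against medians of 0.01, 0.07 and 0.04 over all genes. After quantile normalization the median for estradiol was -0.53. Of the 38 measured members, 37 lay above the median mean level of all genes and 23 in the top 10%. With only genes above the median level, the medians were -0.88, -0.84 and -0.82 over the members. Over all genes above that level they were 0.05, -0.20 and 0.04. The comparisons share the 3 control arrays and are not independent of each other. The tissue is a mixture of cells, and fewer cells of a type cannot be told apart from less RNA per cell.

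Array by array, the members' median distance from the control mean was -0.90, -0.70 and -0.88 in castrated rats, -0.92, -0.93 and -0.66 after estradiol, -0.71, -0.74 and -0.89 after both, and 0.05, 0 and -0.05 in control rats. Every treated array therefore lay clear of every control array on this measure. In castrated rats 31 members had all their arrays below all control arrays (13.7% of all genes did), after estradiol 30 did (15.1% of all genes), and after both 33 did (15.8% of all genes). The heat map of members by array shows the same: the treated columns are mostly blue and the control columns nearly white, and estradiol array 1 holds both the darkest blue and the reddest cells of several rows. With all 12 arrays in the fit, 15 members fell in no comparison: Canx, Uggt1, Sil1, Sdf2, Fkbp2, Erp29, Pdia3, Dnajc10, Derl1, Edem2, Os9, Wfs1 and the 3 sensors. Not passing does not show that a gene was at the control level.

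**Figure D2:**
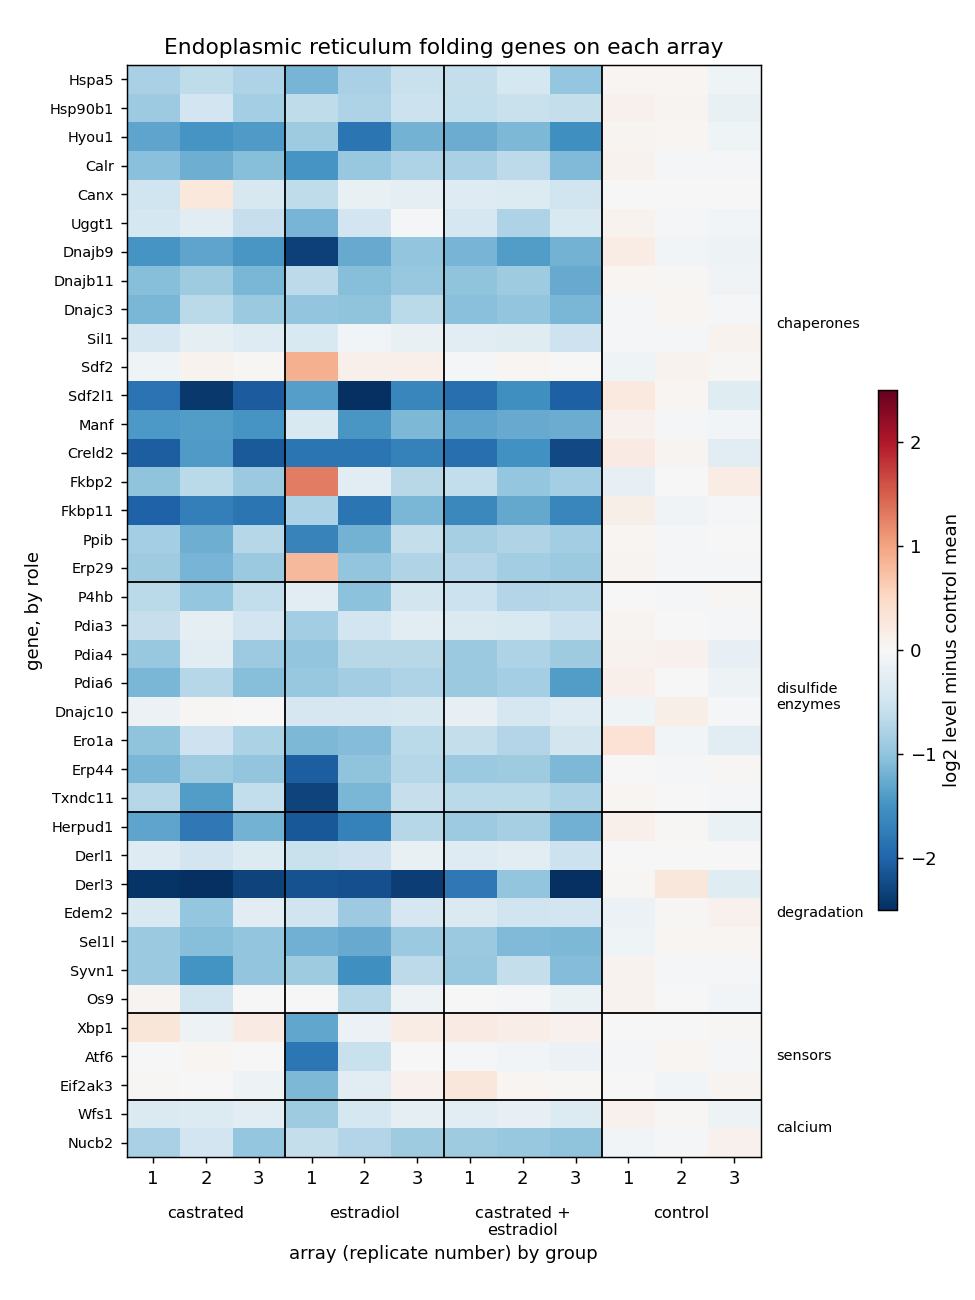
Heat map of the 38 measured members (rows, by role) on the 12 arrays (columns, by group), coloured by log2 level minus the control mean of the gene. Colours end at 2.5 in either direction. The treated arrays were below control for most genes, with medians of -0.66 to -0.93.

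Of the 18 chaperones and folding factors, 12 fell after castration, 12 after estradiol and 10 after both, with medians of -0.96, -0.89 and -0.85. Sdf2l1, a partner of BiP in complexes with DnaJ cochaperones, had levels of 7.71, 7.15 and 7.47 in castrated rats, 8.18, 6.91 and 7.92 after estradiol and 7.66, 8.02 and 7.52 after both, against 9.80, 9.61 and 9.25 in control rats. The 9 treated arrays all lay more than 1 log2 unit below the lowest control array. Sdf2l1 was 4.31-fold lower in castrated rats (-2.11, SE 0.29, limma adjusted p = 0.000689), 3.69-fold lower after estradiol (adjusted p = 0.00187) and 3.53-fold lower after both (adjusted p = 0.00224). Its paralog Sdf2, which shares its domain, had levels of 5.32, 5.52 and 5.46 in castrated rats, 6.33, 5.57 and 5.56 after estradiol and 5.38, 5.48 and 5.42 after both, against 5.32, 5.52 and 5.47 in control rats. The castrated and combined arrays of Sdf2 lay within the control range and the estradiol arrays above it, and its differences of -0.01, 0.38 and -0.01 did not pass. The difference between the 2 paralogs was not tested.

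Creld2, a folding factor with isomerase activity that is secreted on stress, had levels of 7.92, 8.57 and 7.88 in castrated rats, 8.16, 8.17 and 8.30 after estradiol and 8.11, 8.48 and 7.74 after both, against 10.20, 10.05 and 9.71 in control rats. Every treated array was below every control array, and the falls of 3.63-, 3.42- and 3.67-fold were close to each other (SE 0.22 on the log2 scale, limma adjusted p = 0.000283, 0.000457 and 0.000259). Fkbp11, a prolyl isomerase of secretory cells, had levels of 6.70, 7.02 and 6.90 in castrated rats, 7.93, 6.90 and 7.59 after estradiol and 7.11, 7.46 and 7.09 after both, against 8.87, 8.64 and 8.68 in control rats. It fell in each comparison, with log2 differences of -1.85, -1.26 and -1.51, and estradiol array 1 was the treated array nearest to control. Dnajb9, the BiP cochaperone also called ERdj4, had levels of 8.90, 9.07 and 8.92 in castrated rats, 8.05, 9.12 and 9.40 after estradiol and 9.21, 8.99 and 9.19 after both, against 10.57, 10.32 and 10.25 in control rats. Dnajb9 fell in each comparison, with log2 differences of -1.42, -1.52 and -1.25 (SE 0.27, limma adjusted p = 0.00702, 0.00453 and 0.0164), with estradiol array 1 the lowest of all.

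Other chaperones fell as well, and BiP itself was among them. Hyou1, an exchange factor for BiP, had levels of 9.05, 8.89 and 8.95 in castrated rats, 9.48, 8.53 and 9.17 after estradiol and 9.11, 9.23 and 8.83 after both, against 10.43, 10.40 and 10.25 in control rats, and fell 2.63-, 2.46- and 2.46-fold. Calr, the calcium-binding lectin chaperone calreticulin, had levels of 11.34, 11.16 and 11.32 in castrated rats, 10.90, 11.44 and 11.60 after estradiol and 11.57, 11.72 and 11.28 after both, against 12.47, 12.33 and 12.34 in control rats, and fell 2.15-, 2.10- and 1.81-fold. Neither gene had a treated array within the control range. Hspa5, which encodes BiP, the central chaperone and the inhibitor of the 3 sensors, had levels of 11.66, 11.83 and 11.69 in castrated rats, 11.31, 11.66 and 11.91 after estradiol and 11.86, 12.02 and 11.49 after both, against 12.52, 12.51 and 12.36 in control rats. All its treated arrays were below all control arrays, and it fell 1.67-fold after castration (limma adjusted p = 0.0292) and 1.79-fold after estradiol (adjusted p = 0.0148), while the difference of -0.68 after both did not pass (adjusted p = 0.0524). Hsp90b1 (GRP94), Dnajb11, Dnajc3 and Manf, a secreted protein that stabilises BiP with its clients, fell in all 3 comparisons, with differences between -0.59 and -1.43.

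Canx, the membrane-bound lectin chaperone calnexin that works beside calreticulin, had levels of 11.48, 12.23 and 11.57 in castrated rats, 11.33, 11.78 and 11.75 after estradiol and 11.65, 11.62 and 11.48 after both, against 11.98, 11.97 and 11.96 in control rats. Castrated array 2 lay above the control arrays and the other treated arrays below them, and the differences of -0.21, -0.35 and -0.39 did not pass. Fkbp2 and Erp29 depended on 1 array: estradiol array 1 read 8.36 for Fkbp2 and 7.71 for Erp29, above all control arrays (at most 7.27 and 6.97), whereas estradiol arrays 2 and 3 read 6.79 and 6.38 for Fkbp2 and 5.92 and 6.15 for Erp29, below them. Without estradiol arrays 1 and 2, the estradiol difference was -0.75 for Erp29 and -0.70 for Fkbp2. After castration and after both, the differences were -0.88 and -0.81 for Fkbp2 and -0.99 and -0.85 for Erp29. These did not pass with all arrays, although the castrated and combined arrays were all below all control arrays. Without estradiol array 1 they passed (limma adjusted p = 0.00344 and 0.00624 for Fkbp2, 0.000247 and 0.000794 for Erp29). In that fit 1783 and 1484 genes passed in all, against 803 and 627.

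**Figure D3:**
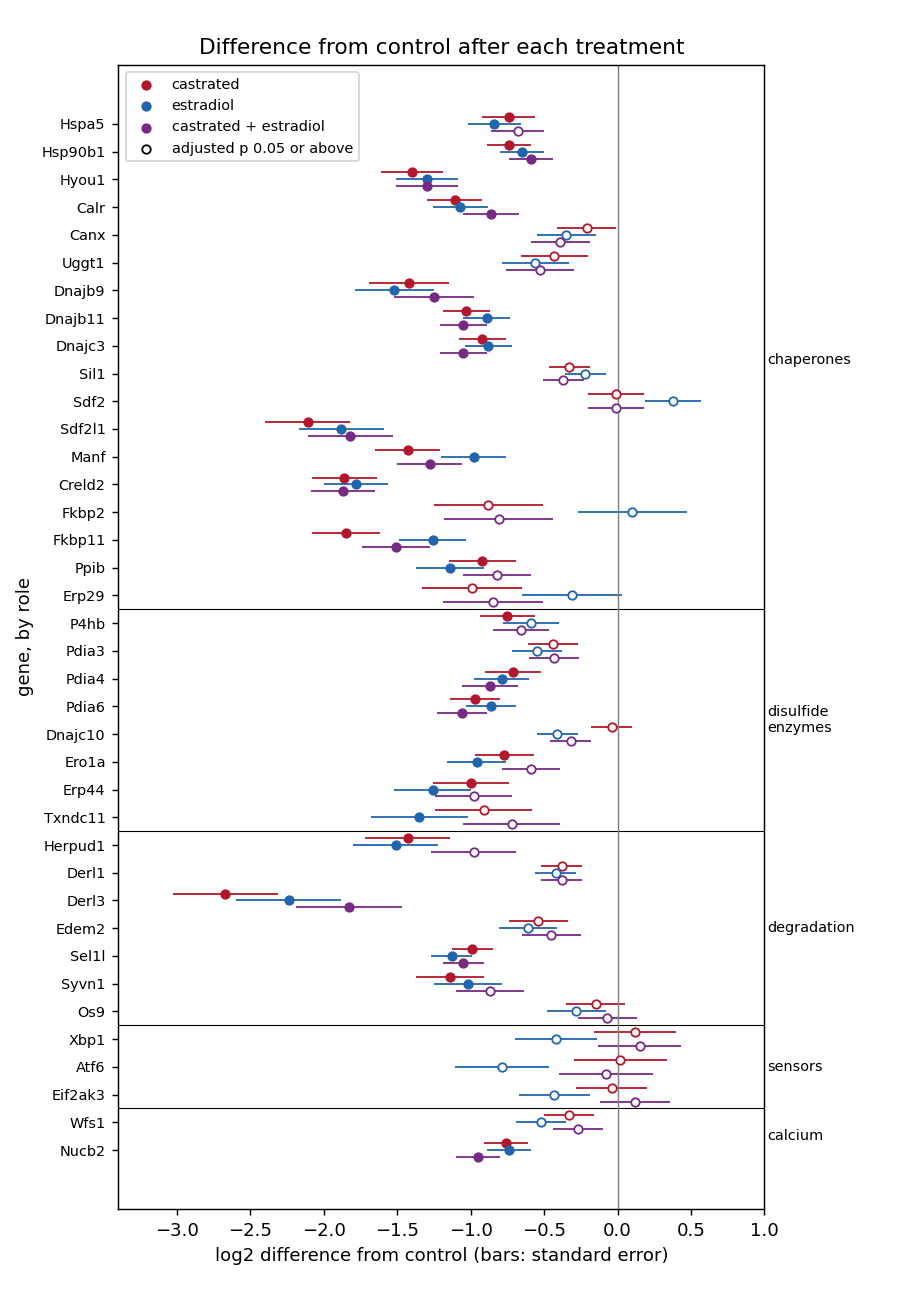
Log2 difference from control (horizontal axis, with standard error bars) of the 38 measured members (vertical axis, by role) after castration (red), estradiol (blue) and both (purple), with open symbols for an adjusted p of 0.05 or above. Derl3 lay farthest to the left after castration (-2.67) and after estradiol (-2.24) and Creld2 after both (-1.87), and the sensors lay between -0.79 and 0.15.

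Of the 8 disulfide enzymes, 5 fell after castration, 5 after estradiol and 2 after both, with medians of -0.76, -0.82 and -0.69. Pdia6 and Pdia4, protein disulfide isomerases found in complexes with BiP, were the ones that fell in all 3 comparisons. Pdia6 had levels of 10.10, 10.52 and 10.17 in castrated rats, 10.29, 10.37 and 10.46 after estradiol and 10.30, 10.38 and 9.84 after both, against 11.37, 11.23 and 11.10 in control rats. Its falls of 1.96-, 1.81- and 2.09-fold separated every treated array from every control array (SE 0.17 on the log2 scale, limma adjusted p = 0.00513, 0.0106 and 0.00316). Pdia4 had levels of 9.01, 9.68 and 9.05 in castrated rats, 8.97, 9.27 and 9.26 after estradiol and 9.03, 9.18 and 9.06 after both, against 10.05, 10.07 and 9.75 in control rats. Castrated array 2 came closest to the control arrays, and the fall after castration was 1.63-fold, against 1.73-fold after estradiol and 1.82-fold after both.

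Erp44, which retains unassembled client proteins at the Golgi and returns them, had levels of 9.37, 9.62 and 9.52 in castrated rats, 8.44, 9.50 and 9.79 after estradiol and 9.58, 9.61 and 9.38 after both, against 10.51, 10.46 and 10.54 in control rats. It was below control on all treated arrays and fell 1.99-fold after castration and 2.39-fold after estradiol, while the combined difference of -0.98 just missed the threshold (limma adjusted p = 0.0524). Txndc11, a thioredoxin-domain protein that binds degradation factors, had levels of 8.57, 7.90 and 8.68 in castrated rats, 6.97, 8.14 and 8.71 after estradiol and 8.61, 8.61 and 8.49 after both, against 9.33, 9.30 and 9.24 in control rats. It fell 2.55-fold after estradiol (limma adjusted p = 0.0289), where array 1 was lowest, and its differences of -0.91 and -0.72 in the other 2 comparisons did not pass. Without estradiol arrays 1 and 2 the estradiol difference was -0.58 and did not pass (adjusted p = 0.228). Ero1a, the oxidase that recharges the disulfide isomerases, had levels of 7.36, 7.84 and 7.57 in castrated rats, 7.25, 7.28 and 7.69 after estradiol and 7.77, 7.64 and 7.91 after both, against 8.72, 8.29 and 8.08 in control rats. It was below control on every treated array and fell 1.71-fold after castration and 1.94-fold after estradiol, and its difference of -0.59 after both did not pass. P4hb, the founding disulfide isomerase, fell after castration (1.68-fold), and its differences of -0.59 and -0.66 in the other 2 comparisons did not pass.

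Among the 7 degradation factors, 4 fell after castration, 4 after estradiol and 2 after both, with medians of -0.99, -1.02 and -0.87. Derl3, a derlin of secretory tissues that helps to move misfolded glycoproteins out of the endoplasmic reticulum, had the largest difference of all members after castration and after estradiol. Its levels were 6.81, 6.01 and 6.94 in castrated rats, 7.08, 7.06 and 6.90 after estradiol and 7.47, 8.28 and 6.52 after both, against 9.28, 9.54 and 8.95 in control rats. The treated arrays did not reach the control range, and those of the combined group were the most spread, with an SD of 0.88 (n = 3). Derl3 was 6.35-fold lower after castration (-2.67, SE 0.36, limma adjusted p = 0.000638), 4.73-fold lower after estradiol (adjusted p = 0.00264) and 3.57-fold lower after both (adjusted p = 0.00988, or 0.0628 without control array 2). Its paralog Derl1, which is expressed broadly, had levels of 8.14, 7.99 and 8.12 in castrated rats, 7.90, 7.95 and 8.27 after estradiol and 8.14, 8.17 and 7.93 after both, against 8.47, 8.45 and 8.46 in control rats. Its treated arrays were all below the control arrays, which had an SD of 0.01 (n = 3), but its differences of -0.38, -0.42 and -0.38 did not pass.

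Herpud1, which assembles the HRD1 ubiquitin ligase complex and is among the most stress-responsive genes of the pathway, had levels of 8.51, 8.04 and 8.65 in castrated rats, 7.70, 8.14 and 9.11 after estradiol and 8.91, 8.99 and 8.63 after both, against 9.95, 9.86 and 9.66 in control rats. Herpud1 fell 2.69-fold after castration (limma adjusted p = 0.0104) and 2.84-fold after estradiol (adjusted p = 0.00737), and after both its difference of -0.98 did not pass (adjusted p = 0.0792). Without estradiol arrays 1 and 2 its difference after estradiol was -0.71 (adjusted p = 0.108). Sel1l, the adaptor of the same ligase, had levels of 9.04, 8.91 and 8.99 in castrated rats, 8.76, 8.71 and 9.04 after estradiol and 9.04, 8.86 and 8.84 after both, against 9.86, 10.02 and 10.02 in control rats. Its treated arrays were close together and below control, with falls of 1.98-, 2.19- and 2.08-fold (SE 0.14 on the log2 scale) that passed under all 20 alternative settings in each comparison. Syvn1, the ligase HRD1 itself, had levels of 9.47, 8.89 and 9.40 in castrated rats, 9.51, 8.86 and 9.74 after estradiol and 9.45, 9.80 and 9.31 after both, against 10.47, 10.36 and 10.34 in control rats. Array 2 was the lowest of both single treatments, and Syvn1 fell 2.20-fold after castration and 2.03-fold after estradiol, while -0.87 after both did not pass (limma adjusted p = 0.0502).

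Edem2, a mannosidase that marks glycoproteins for degradation, had levels of 9.33, 8.74 and 9.45 in castrated rats, 9.21, 8.80 and 9.30 after estradiol and 9.36, 9.21 and 9.23 after both, against 9.56, 9.75 and 9.83 in control rats. All treated arrays were below all control arrays, and its differences of -0.54, -0.61 and -0.45 did not pass. Os9, a lectin that delivers such glycoproteins to the ligase, had differences of -0.15, -0.28 and -0.07, and none of them passed.

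**Figure D4:**
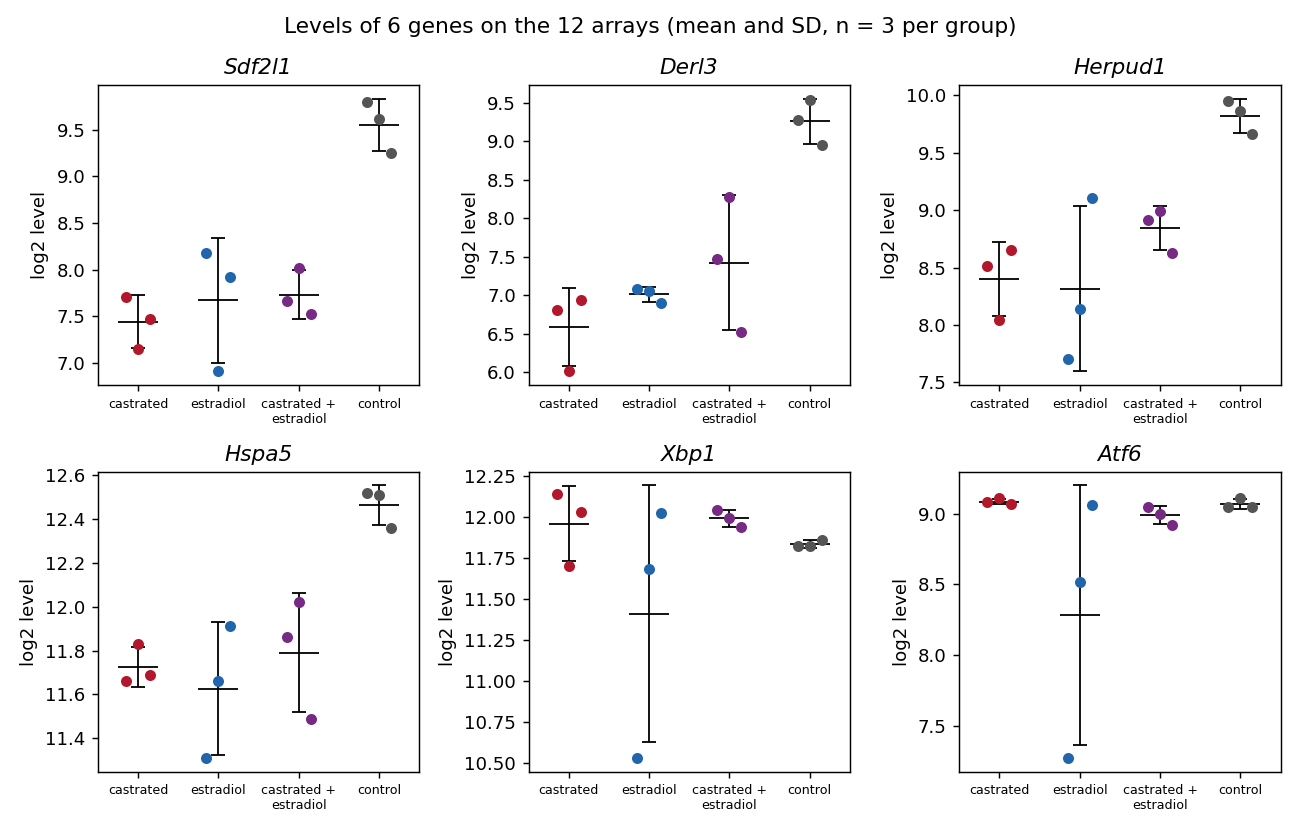
Log2 levels of Sdf2l1, Derl3, Herpud1, Hspa5, Xbp1 and Atf6 on each array (points) by group, with the mean (horizontal line) and SD (bars), n = 3 per group; the vertical axes differ between genes and do not start at 0. The treated points of the first 4 genes lie below all control points, and the lowest points of Xbp1 (10.53) and Atf6 (7.27) are both estradiol array 1.

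Of the 3 sensors and regulators, 0 fell and 0 rose in each comparison with control, and limma placed 0 of 3 below an unadjusted p of 0.05 after castration and after both, and Atf6 alone after estradiol. Xbp1, the transcription factor that IRE1 activates by splicing its RNA, had levels of 12.14, 11.70 and 12.03 in castrated rats, 10.53, 11.68 and 12.02 after estradiol and 12.04, 11.99 and 11.94 after both, against 11.82, 11.82 and 11.86 in control rats. Its combined arrays lay above the control arrays, its castrated and estradiol arrays on both sides of them, and its differences were 0.12, -0.42 and 0.15 (SE 0.28, limma adjusted p = 0.954, 0.315 and 0.953). The arrays give the summed level of its transcripts and not the spliced share. Atf6, whose product is cut on stress to release a transcription factor, had levels of 9.08, 9.11 and 9.07 in castrated rats, 7.27, 8.52 and 9.06 after estradiol and 9.05, 9.0 and 8.92 after both, against 9.05, 9.11 and 9.05 in control rats. Eif2ak3, the kinase PERK that slows protein synthesis, had levels of 9.92, 9.87 and 9.75 in castrated rats, 8.77, 9.60 and 9.99 after estradiol and 10.16, 9.94 and 9.91 after both, against 9.89, 9.81 and 9.95 in control rats.

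For Atf6 and Eif2ak3 the castrated and combined arrays lay at or near the control range, with differences of 0.02 and -0.08 for Atf6 and -0.04 and 0.12 for Eif2ak3. The estradiol differences of -0.79 (Atf6) and -0.43 (Eif2ak3) came from arrays 1 and 2, while array 3 read within or above the control range. Without those arrays the estradiol differences were -0.01 for Atf6, 0.11 for Eif2ak3 and 0.19 for Xbp1. These values rest on estradiol array 3 alone, the array with Semg1 at 9.46. It read 9.71 for the secretory gene Pbsn, against 6.28 and 4.82 on estradiol arrays 1 and 2. Which of the 3 arrays stands for the treatment was not tested. Without estradiol array 3 the estradiol differences of Atf6, Eif2ak3 and Xbp1 were -1.18, -0.70 and -0.73 and passed (limma adjusted p = 0.0072, 0.0224 and 0.0483). That fit kept only estradiol arrays 1 and 2, which stood apart over all probe sets. In it 5329 genes passed in all for estradiol, against 1159 with all arrays. Passing there therefore does not set the sensors apart from other genes. A p above the threshold does not show that the sensors were at the control level.

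The 2 genes of calcium handling differed in their calls. Nucb2, a calcium-binding protein of the secretory pathway and the precursor of nesfatin, had levels of 10.60, 10.93 and 10.45 in castrated rats, 10.82, 10.69 and 10.53 after estradiol and 10.53, 10.46 and 10.42 after both, against 11.34, 11.38 and 11.53 in control rats. It fell 1.69-, 1.67- and 1.93-fold, with no overlap between treated and control arrays (limma adjusted p = 0.0108, 0.013 and 0.00298). After quantile normalization the differences of Nucb2 after castration and after estradiol were -0.64 and -0.37 and did not pass (limma adjusted p = 0.0943 and 0.269). Wfs1, the membrane protein wolframin, had differences of -0.33, -0.52 and -0.27 that did not pass.

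How far these counts depended on single arrays differed between the comparisons. For castration, leaving out castrated array 1 or castrated array 3 left 14 members that passed instead of 22. For estradiol, 14 passed without control array 1, 14 without estradiol arrays 1 and 2, and 4 when only the estradiol and control arrays were fitted. Without estradiol arrays 1 and 2 the calls of Hspa5, Hsp90b1, Ppib, Pdia4, Pdia6, Ero1a, Txndc11, Herpud1 and Syvn1 were lost and Erp29 passed. With 1 estradiol array left, the differences of these 9 genes lay between -0.55 and -0.77. Some were close to their values with all arrays (Pdia6 -0.77 against -0.86, Pdia4 -0.70 against -0.79). Others were much smaller in size (Txndc11 -0.58 against -1.35, Herpud1 -0.71 against -1.51, Ppib -0.58 against -1.14). For the combined treatment the count went the other way, to 26 without estradiol array 1, 29 without estradiol arrays 1 and 2 and 31 when only the 2 groups compared were fitted. Calls over all genes moved with these counts. For castration 470 genes passed in all without castrated array 1 and 448 without castrated array 3, against 803 with all arrays. For estradiol 432 passed without control array 1 and 197 when only the 2 groups were fitted, against 1159. For the combined treatment 1484 passed without estradiol array 1 and 2871 when only the 2 groups compared were fitted, against 627. Under every one of these settings all members that passed were lower than control.

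Some other genes of the same compartment fell too. A list of 75 further genes of the endoplasmic reticulum, covering glycosylation, further isomerases, degradation, regulators and related functions, had 66 measured. Of these, 8 fell after castration, 17 after estradiol and 9 after both, where 2.36%, 5.48% and 2.21% of all genes fell. In each comparison 0 rose, where 3.17%, 2.51% and 2.12% of all genes rose. At an unadjusted p below 0.05, limma placed 23, 34 and 19 of the 66 lower and 2, 1 and 1 higher. Of all genes 6.22%, 14.7% and 6.4% were lower by that measure and 9.88%, 15.5% and 8.26% higher. The medians of the 66 genes were -0.29, -0.47 and -0.25. Ostc, a subunit of the oligosaccharyltransferase that adds N-glycans, had the largest differences of those that passed, at -1.50 after castration, -1.78 after estradiol and -1.34 after both (SE 0.30). Selenok, a selenoprotein of the endoplasmic reticulum membrane, fell in each comparison, with log2 differences of -1.34, -1.35 and -1.30. Selenos, a partner of the degradation machinery, and Serp1, a translocon-associated stress protein, also fell in each comparison, with differences of -1.06, -0.89 and -0.96 for Selenos and -0.95, -0.71 and -0.94 for Serp1. Rpn1, another subunit of the oligosaccharyltransferase, did so too (-0.86, -1.005 and -1.01), and the disulfide isomerase Pdia5 fell after castration (-0.79) and after both (-1.06). After estradiol Dpagt1, the enzyme that starts N-glycan assembly, and Ube2j1, a ubiquitin-conjugating enzyme of the degradation pathway, fell, with differences of -1.37 and -1.34. Among the regulators, Creb3l2, a transcription factor related to ATF6, fell in each comparison (-0.79, -0.91 and -0.75, limma adjusted p = 0.02, 0.00859 and 0.0299). Of the PERK branch, Ddit3 (CHOP), a transcription factor of prolonged stress, had differences of -0.04, 0.15 and 0.01, and Atf4, the factor translated when PERK is active, had -0.41, -0.49 and -0.22, and none of these passed.

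The treated groups were compared with each other to see whether the 3 procedures differed in their effect on these genes. For castrated plus estradiol against castrated, limma called 0 of 38 members (0% of all genes), with 1 higher and 0 lower at an unadjusted p below 0.05 (0.455% and 0.600% of all genes) and a median difference of 0.06. For castrated plus estradiol against estradiol it called 0 (0% of all genes), with 2 higher and 1 lower unadjusted (9.82% and 9.09% of all genes) and a median of 0.07. For estradiol against castrated it called 0 (0% of all genes), with 2 higher and 2 lower unadjusted (1949 and 2007 of all 14506 genes) and a median of -0.06. The largest single differences were those of Derl3 for both against castrated (0.83, SE 0.36, limma adjusted p = 1) and of Fkbp2 for both against estradiol (-0.91, SE 0.37, adjusted p = 0.246) and for estradiol against castrated (0.97, SE 0.37, adjusted p = 0.15). Without estradiol array 1 those of Fkbp2 were -0.32 and 0.38. Without estradiol array 3, 7 members passed for both against estradiol (6 higher and 1 lower), where 4153 of all 14506 genes passed. For estradiol against castrated 7 passed (1 higher and 6 lower), where 5417 of all genes did.

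For 8 members the combined difference from control was closer to 0 than the sum of the single differences by more than the error. The interaction (the estradiol difference in castrated rats minus that in intact rats) was positive and passed for 8 of 38 members (0.779% of all genes) and negative for 0 (0.317% of all genes), with 26 positive and 0 negative at an unadjusted p below 0.05 in limma (7.99% and 6.18% of all genes). The median interaction was 0.76 (0.46 after quantile normalization), against -0.06 over all genes. For Derl3 estradiol gave a difference of 0.83 in castrated rats and -2.24 in intact rats, and for Sdf2l1 0.29 in castrated rats and -1.88 in intact rats. For Creld2 the pair was -0.01 and -1.78, for Herpud1 0.45 and -1.51, for Fkbp11 0.35 and -1.26, for Hyou1 0.10 and -1.30, for Calr 0.25 and -1.07 and for Sel1l -0.07 and -1.13. In none of the 8 did the estradiol difference in castrated rats itself pass. Without estradiol arrays 1 and 2, the median interaction was 0.69, and that of Herpud1 was 1.16, against 1.95 with all arrays. The count of members that passed was 1 to 4 without any 1 of the castrated, combined or control arrays (63 to 99 over all genes). After quantile normalization the count was 4 (168 over all genes). It was 13 without estradiol array 1 and 19 without estradiol array 3, where 389 and 1684 genes passed in all, against 159.

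**Figure D5:**
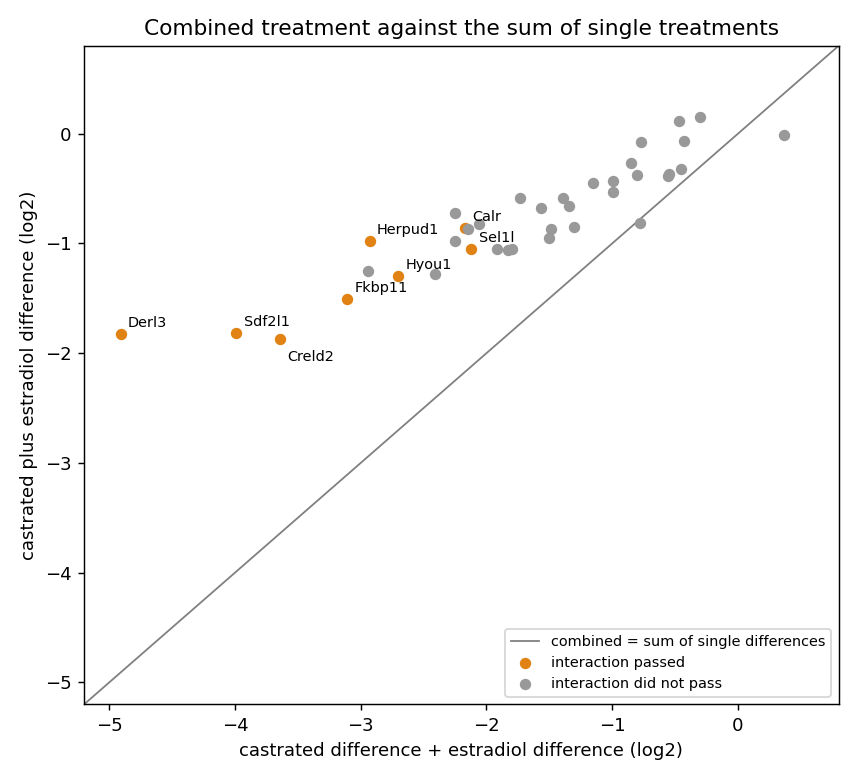
Log2 difference of castrated plus estradiol from control (vertical axis) against the sum of the castrated and estradiol differences from control (horizontal axis) for the 38 measured members, with a line where both are equal and the 8 members whose interaction passed in orange. All 3 differences share the control arrays, and points above the line have a combined difference closer to 0 or higher than the sum; Derl3 stands at -4.91 on the horizontal axis and -1.83 on the vertical.

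Set beside the promoter elements shown above, 9 of the 11 members with an ERSE or ERSE-II fell after castration, 9 after estradiol and 7 after both, with medians of -1.03, -0.89 and -0.98. The exceptions in every comparison were Canx and Xbp1, whose elements are printed above, and after both also Hspa5 and Herpud1. Of the 19 members with a promoter and neither element, 9, 9 and 5 fell, with medians of -0.88, -0.61 and -0.81, and these include Sdf2l1, Dnajb9 and Fkbp11. The 17 other tested genes with either element, which are not on the list of 43, had medians of -0.01, 0 and 0.03, and 0, 2 and 0 of them fell; the 2 were Ppm1l and Ggct. The window searched does not hold elements that lie farther from the start. Only exact matches were searched, so a promoter whose element differs in any fixed letter is counted as having neither. No difference between these sets was tested.

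Markers of the cell types in the tissue moved with the treatments. Of 8 luminal epithelial markers 6 rose after castration, 4 after estradiol and 7 after both, with summed levels (log2 of the sum of linear levels) of 14.11 to 14.43 in castrated rats, 13.79 to 14.00 after estradiol and 14.12 to 14.40 after both, against 13.27 to 13.39 in control rats. Of 6 ventral prostate secretion genes 2 fell after castration, 2 after estradiol and 1 after both, with summed levels of 14.46 to 14.60 in castrated rats, 14.27 to 14.70 after estradiol and 14.55 to 14.67 after both, against 15.11 to 15.15 in control rats. Within this list Scgb2a1, a secretoglobin, read 12.47 to 12.73 in castrated rats, 12.46 to 12.72 after estradiol and 12.68 to 12.72 after both. Its control arrays read 12.84 to 12.88, above all its treated arrays. Pbsn, the androgen-dependent secretory protein probasin, read 4.96, 4.37 and 4.54 in castrated rats, 6.28, 4.82 and 9.71 after estradiol and 5.31, 7.45 and 4.88 after both, against 10.50, 11.47 and 11.63 in control rats. Pbsn fell in all 3 comparisons, and its treated arrays were all below control (limma adjusted p = 0.000991, 0.0164 and 0.00487). Of 7 macrophage markers 5 rose after castration, 1 after estradiol and 3 after both, with summed levels of 11.37 to 11.98 in castrated rats, 9.96 to 11.46 after estradiol and 10.90 to 11.45 after both, against 9.50 to 10.09 in control rats. Plasma cells are also rich in this machinery, and 1 of their 5 markers rose in each comparison, with summed levels of 9.11 to 10.11 in castrated rats, 9.21 to 9.65 after estradiol and 9.19 to 9.91 after both, against 8.47 to 8.58 in control rats. Of their defining markers, Jchain read 5.08, 4.43 and 6.77 in castrated rats, 4.05, 5.65 and 4.87 after estradiol and 5.17, 5.05 and 5.79 after both. Its control arrays read 3.97, 4.98 and 4.82. Tnfrsf17 read 4.02 to 4.41 in castrated rats, 4.25 to 4.93 after estradiol and 4.20 to 4.36 after both, against 4.24 to 4.43 in control rats. Pou2af1 read 5.64 to 5.73 in castrated rats, 5.46 to 6.36 after estradiol and 5.57 to 5.87 after both, against 5.62 to 5.94 in control rats. Values of the other plasma cell markers are not given here, so which markers raised the summed levels is not shown. Of 4 T cell markers 1 rose after castration, 2 after estradiol and 1 after both, and 1 of 6 smooth muscle and 1 of 4 endothelial markers fell after estradiol. The part of these shifts in the falls of the folding genes was not tested.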

How the data were processed

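Total RNA of the ventral prostate was hybridized to Affymetrix arrays, and the authors processed them with Affymetrix Expression Console, per the submitters' processing notes. The deposited values, 1 per probe set and array, were read as log2 levels from their range; the sources used here name no normalization, log base or genome build. Of 29214 probe sets, 15310 carried 1 gene symbol, 323 several and 13581 none; the first were used, and for a gene with several probe sets the one with the highest mean was taken, which left 14506 genes. No member had a second probe set. No 2 arrays held identical values. The 12 arrays were grouped by the labels.

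The 4 group means were fitted to all arrays with lmFit and eBayes of limma 3.58.1 (R 4.3.3), which left 8 residual degrees of freedom beside 5.29 prior ones, and contrasts were tested 2-sided, with Benjamini-Hochberg adjustment over all genes and a threshold of 0.05. All p-values in the text come from limma. The 3 arrays per group limit the precision. The procedure was tested on simulated data. Promoters were searched with Python 3.11.15, and figures drawn with matplotlib 3.10.9. Deviations from the group means correlated above 0.1 in 7 of 18 same-numbered pairs of arrays (range -0.16 to 0.28). All 3 castrated and estradiol pairs did (0.14, 0.28 and 0.2), and no other pair of groups had all its pairs above 0.1. Correlations of differently numbered arrays are not given here, so these values cannot decide whether replicate numbers pair these 2 groups.

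The members and lists were chosen with earlier results of these data known. Values per array are given, by rule, for the 4 members of each role with the largest mean difference among those that passed, for all sensors, for paralogs and for members whose interaction passed. For genes outside the list, the rule takes up to 4 falls per comparison. Hspa5, Canx, Fkbp2, Erp29, Hsp90b1, Dnajb11, Dnajc3, Manf, P4hb, Os9, Wfs1, Scgb2a1, Pbsn, Jchain, Tnfrsf17, Pou2af1, Ddit3, Atf4, Creb3l2, Ppm1l and Ggct were named outside it, after their values were seen.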

Additional observations from a re-analysis of the deposited data

Results flagged for a closer look

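For 8 members the effect of estradiol differed between castrated and intact rats by the interaction term in limma. The interaction was 3.08 for Derl3 (SE 0.51, adjusted p = 0.0107), 2.17 for Sdf2l1 (SE 0.40, adjusted p = 0.0198), 1.95 for Herpud1 (SE 0.41, adjusted p = 0.0363), 1.76 for Creld2 (SE 0.32, adjusted p = 0.0172), 1.60 for Fkbp11 (SE 0.32, adjusted p = 0.0305), 1.39 for Hyou1 (SE 0.30, adjusted p = 0.0416), 1.32 for Calr (SE 0.26, adjusted p = 0.0312) and 1.07 for Sel1l (SE 0.20, adjusted p = 0.0215). In each of these genes the 3 estradiol arrays of intact rats lay below the 3 control arrays, while estradiol in castrated rats moved the level by at most 0.83. Groups of 3 arrays were too small for the Dixon test of an outlying value; the counts without each array are given below.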

How the results depend on the processing

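The number of members that passed was recomputed under 20 alternatives for the comparisons and 19 for the interaction. It stayed within 1.5 times for all comparisons with array medians centred, with only genes above the median level and with the mean of all probe sets. No member had a second probe set, so the last of these left the members' own values as they were and says little about them. With the replicate block the count was 21 after castration, 22 after estradiol, 16 after both, 0 for estradiol against castrated and 7 for the interaction, so the block changed no count by over 1.5 times. Quantile normalization gave 14 for estradiol and 4 for the interaction, with 979 and 168 genes passing in all, against 1159 and 159. Fitting only the groups compared gave 4 for estradiol and 31 for both. Array weights gave 33 for both and 23 for the interaction, with 4134 and 1051 genes passing in all, against 627 and 159. Leaving out estradiol arrays 1 and 2 gave 14 for estradiol, where array 3 was then alone and assumed to vary like the other groups, and 29 for both. Leaving out 1 array at a time gave 14 to 26 for castration (361 to 1783 over all genes), 14 to 32 for estradiol (390 to 5329) and 10 to 26 for both (265 to 1484). It gave 0 to 7 for both against estradiol, 0 to 7 for estradiol against castrated and 1 to 19 for the interaction. The values of 7 arose without estradiol array 3, where 4153 and 5417 genes passed in all. The 32 for estradiol and 19 for the interaction came from the same setting, with 5329 and 1684 genes passing in all. The cause of these shifts was not tested. For the 16 members taken by the rule for roles and sensors, no difference from control that had passed changed sign; of their recomputed values 860 kept their side of the threshold, 37 newly passed and 63 no longer passed. Sdf2l1, Creld2 and Sel1l passed in 20 of 20 alternatives in each comparison with control, and Txndc11 passed in 4 after castration.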
